A study of Mus musculus with 12 samples.

Results

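The cytosolic ribosomal protein genes were followed through postnatal development of the mouse auditory nerve. A gene was taken as a member when its probe set carried a single symbol made of Rpl or Rps, a number and at most one of the letters a, x, y or l, and Rplp0, Rplp1, Rplp2 and Rpsa were admitted by name. Kinases of the Rps6k family and pseudogenes were left out, and each gene was represented by the probe set with the highest mean over the 12 arrays. The rule gave 45 genes of the 18193 that had a probe set with a single symbol, 24 of the large and 21 of the small ribosomal subunit. It matched 46 symbols, and Rps4l was set aside because RefSeq lists it as a pseudogene. A further 28 ribosomal protein symbols, among them Rpl3, Rpl5, Rpl10 and Rpl32, occurred only on probe sets that also carry other symbols and are not among the 45. By the ending of their names, the chosen probe sets were plain (_at) in 14 genes, _a_at in 17, _x_at in 12 and _s_at in 2. Whether those that are not plain also measure related transcripts was not tested.

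The samples were the modiolus of untreated CBA/CaJ mice, the central core of the cochlea that holds mainly the auditory nerve, freed of the bony shell and the lateral wall. There were 6 stages, named P0 to P21 after the postnatal day (0, 3, 7, 10, 14 or 21), which span the maturation of the nerve and the onset of hearing. Each stage had 2 samples, each made from the pooled left and right cochleas of 1 mouse, and mice of both genders were used. RNA from each sample was hybridised to 1 Affymetrix array, and the values are log2 RMA signals. With 2 arrays a stage, the number of arrays limits the precision of every value below.

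The cytosolic ribosome is built of a small subunit that reads the mRNA and a large subunit that joins the amino acids, and its proteins are needed in fixed proportion. Their mRNAs belong to the TOP class, which begin with an uninterrupted run of pyrimidines (C and T in the DNA) and are translated under the control of the kinase complex mTORC1. Ribosome production is known to be high in growing and dividing cells and lower in cells that have stopped growing. Several members, such as Rplp0, Rpl13a, Rps18 and Rpl19, are also in common use as reference genes to which other transcripts are scaled.

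The arrays were alike in scale, as RMA makes them, with medians of 6.70 to 6.79 and highest values of 14.47 to 14.66 on the log2 scale. The markers of the labelled tissue were present. The mean of 10 neuron genes was 10.45 and 10.22 on the P0 arrays and 10.90 and 11.51 on the P21 arrays, and that of 5 Schwann cell and myelin genes was 11.77 and 11.60 at P0 and 12.94 and 12.88 at P21. The P21 arrays differed from the rest in RNA balance: the 3′ minus 5′ difference of the Actb control probes was 0.81 to 1.41 on the arrays of P0 to P14 and 2.32 and 2.03 at P21. For Gapdh it was 0.18 to 0.68 and then 1.65 and 1.37. The part of this difference in the P21 results was not tested. Within P21, replicate 1 was higher than replicate 2 in 42 of the 45 genes, with a median gap of 0.14, whereas the median gap was 0.03 to 0.09 at the other stages.

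Most of the 45 genes stood highest at P0 or P3 and lowest at P14 or P21. The highest stage mean was at P0 in 16 genes and at P3 in 26, and the lowest was at P14 in 19 and at P21 in 23. The mean over the 45 genes was 12.54 and 12.55 on the P0 arrays and 12.59 on both P3 arrays. It was then 12.27 and 12.37 at P7, 12.17 and 12.21 at P10, 12.10 on both P14 arrays, and 12.20 and 12.01 at P21. The arrays of P7 and later thus lay below all 4 arrays of P0 and P3.

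**Figure D1:**
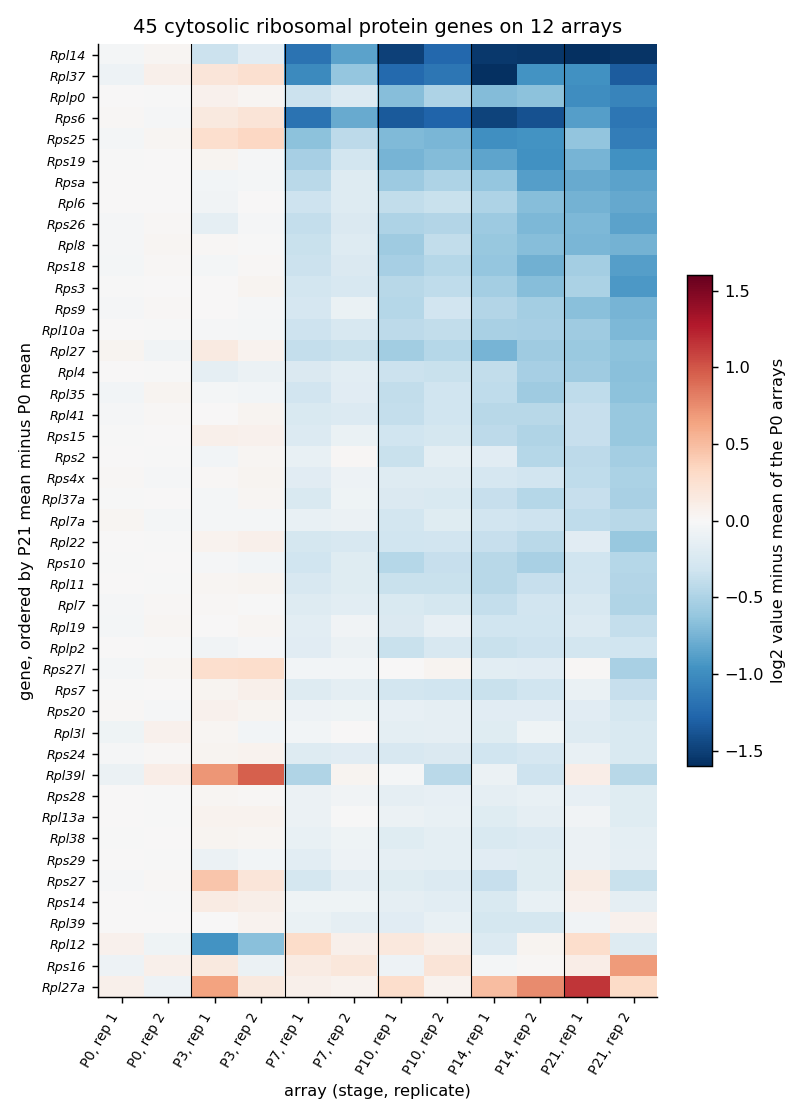
Heat map of the 45 ribosomal protein genes (rows, ordered by the P21 mean minus the P0 mean) on the 12 arrays (columns, 2 per stage), coloured by the log2 RMA value minus the gene's mean on the P0 arrays, with blue for lower and red for higher. The blue of most rows sets in at P7, is strongest in Rpl14, Rpl37 and Rps6, and is absent from the rows of Rpl27a and Rps16 at the bottom. The probe set of Rps16 is among the dimmest 25%.

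Each stage was compared with P0 by limma over all 45037 probe sets, and a gene was called when its Benjamini-Hochberg adjusted p was under 0.05 and its fold change over 1.5. The comparisons with P0 share the P0 arrays and are not independent of each other. By limma none of the 45 was called higher than at P0 at P3, P7, P10 or P14, against 0.981%, 5.44%, 9.24% and 10.2% of all probe sets, and at an unadjusted p under 0.05 only 1 was higher at P3 and 1 at P14. At P3, 1 of the 45 was called lower, against 2.80% of all probe sets, and the median log2 change of the 45 was 0.025. At P7, 3 were called lower against 5.68% of probe sets, with a median of -0.19. At P10, 6 were called lower (13.3%) against 10.1%, with a median of -0.305. At P14, 13 were called lower (28.9%) against 11.3%, with a median of -0.40, and at P21 16 were called lower (35.6%) against 14.9%, with a median of -0.425. The median over all probe sets stayed between -0.01 and 0.04 in these comparisons. Over the 18193 genes, each on 1 probe set like the members, 7.44% were called lower at P7, 13.5% at P10, 14.8% at P14 and 16.9% at P21. At P10 the share of members called was therefore close to that of all probe sets and of all genes. At P14 and P21 it was more than either.

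Most members moved by less than the 1.5-fold limit, in the same direction. By the adjusted p alone, 6 of 45 were lower at P7 against 8.99% of all probe sets, 22 at P10 (48.9%) against 16%, 31 at P14 (68.9%) against 17.5% and 29 at P21 (64.4%) against 21.1%. Both P10 arrays lay below both P0 arrays in 40 of the 45 genes, against 33.6% of all probe sets. This held in 38 genes at P7 against 31%, in 40 at P14 against 34.6% and in 37 at P21 against 32.6%. Over the 18193 genes on 1 probe set each, the adjusted p alone passed 12.1% as lower at P7, 21.5% at P10, 23.3% at P14 and 24.7% at P21. Both later arrays lay below both P0 arrays in 6472 of the 18193 at P7, 7285 at P10, 7309 at P14 and 6429 at P21. Over the 6 stages, limma's F-test with a range of stage means over 1.5-fold called 18 of the 45, against 38.3% of all probe sets. The F-test without the limit on range passed 32 of the 45 against 45.5%. In bulk tissue, fewer cells of a type rich in these mRNAs and less of them in each cell cannot be told apart.

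**Figure D2:**
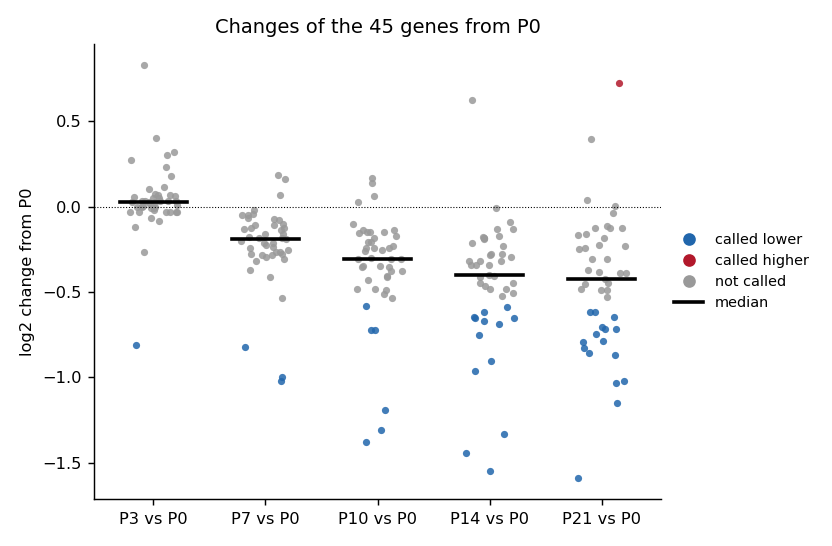
Log2 change from P0 of each of the 45 genes at P3, P7, P10, P14 and P21 (points, limma estimates from 2 arrays a stage), with the median as a bar and called genes in colour. The median is 0.025 at P3 and -0.425 at P21, and the spread towards lower values widens from P7 on.

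Rpl14, a protein of the large subunit, had the largest change at P10 and at P21. Its values were 11.51 and 11.58 at P0, 11.20 and 11.36 at P3, 10.37 and 10.69 at P7, 10.05 and 10.29 at P10, 10.00 and 9.99 at P14, and 9.95 and 9.97 at P21. Every array from P7 on was below every earlier array. The log2 change from P0 was -1.02 (SE 0.13) at P7, -1.38 (SE 0.13, 2.59-fold, limma adjusted p = 5.23e-05) at P10 and -1.59 (SE 0.13, 3.00-fold) at P21. At P3 both of its arrays were already below both P0 arrays, with a change of -0.265 that was not called.

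Rps6, the small-subunit protein that is phosphorylated by kinases downstream of mTORC1, had the widest range of stage means of all 45, 1.62. It stood at 10.72 and 10.68 at P0 and at 10.85 and 10.91 at P3. The values were then 9.52 and 9.89 at P7, 9.35 and 9.42 at P10, 9.22 and 9.30 at P14 and 9.82 and 9.54 at P21. The arrays of P7 and later did not overlap with those of P0 and P3. The change from P3 to P7 was -1.17 (SE 0.14, adjusted p = 0.000607), that from P0 to P10 was -1.31 (SE 0.14, 2.49-fold, adjusted p = 9.31e-05) and that from P0 to P21 was -1.02 (SE 0.14).

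Rpl37, of the large subunit, followed the same course with more scatter. Its values were 11.30 and 11.46 at P0, 11.58 and 11.64 at P3, 10.36 and 10.76 at P7, 10.14 and 10.23 at P10, 9.66 and 10.43 at P14, and 10.41 and 10.05 at P21. The 2 P14 arrays differed by more than those of any other stage. It changed from P0 by -0.82 at P7, -1.19 (SE 0.23, 2.29-fold, adjusted p = 0.0033) at P10 and -1.15 (SE 0.23) at P21. Its call at P7 was lost without either P0 array, without P7 replicate 1 and without either P10 array.

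Rps25, a small-subunit protein used by some viral and cellular mRNAs for internal initiation, read 10.10 and 10.16 at P0, 10.40 and 10.46 at P3, 9.48 and 9.71 at P7 and 9.42 and 9.40 at P10. It was 9.15 and 9.18 at P14 and 9.50 and 9.02 at P21. The change was -0.72 (SE 0.15, 1.65-fold, adjusted p = 0.00455) at P10, -0.965 at P14 and -0.87 at P21, and the P3 arrays were the highest of all 12.

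Rps19, the small-subunit protein most often mutated in Diamond-Blackfan anaemia, read 13.83 and 13.85 at P0 and 13.88 and 13.82 at P3. It read 13.31 and 13.55 at P7, 13.09 and 13.15 at P10, 13 and 12.87 at P14, and 13.10 and 12.87 at P21. Its change was -0.72 (SE 0.12, 1.65-fold, adjusted p = 0.0013) at P10 and -0.855 at P21. Rplp0, which forms the base of the stalk that recruits elongation factors, read 13.84 and 13.82 at P0, 13.90 and 13.86 at P3, 13.48 and 13.61 at P7, 13.15 and 13.34 at P10, 13.14 and 13.18 at P14, and 12.83 and 12.77 at P21. Its change was -0.585 (SE 0.10, 1.5-fold, adjusted p = 0.00174) at P10, at the very limit of the fold rule, and it was not called there when P0 replicate 1 or P10 replicate 1 was left out. By P21 it was -1.03 (SE 0.10, 2.04-fold, adjusted p = 3.44e-05).

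**Figure D3:**
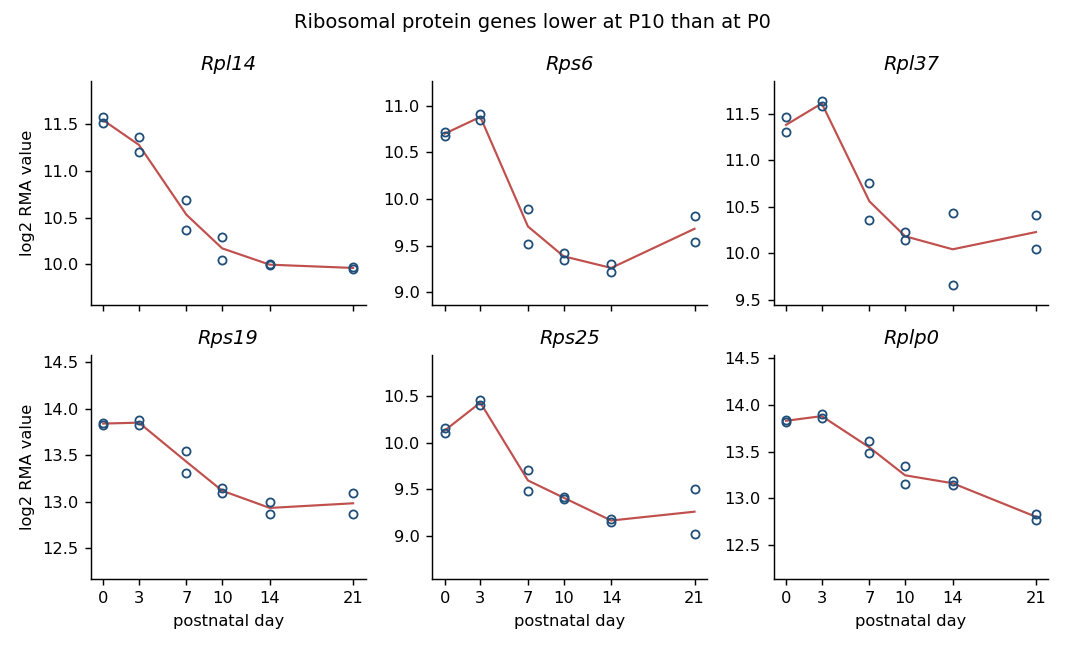
Log2 RMA values of the 6 genes called lower at P10 than at P0, by postnatal day (open circles, 1 array each, 2 a stage; line, stage means; each panel spans 2.4 log2 units). In all 6 panels the P10 and P14 circles lie below both the P0 and the P3 circles.

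The starts of these genes are shown with the longest pyrimidine run near the annotated start. This run is not necessarily the one at the 5′ end of the mRNA that defines the TOP class. The start of Rps28 is added as the member over a mean of 9 that varied least over the stages. Each line gives 30 bases of the gene's own strand from 5′ to 3′, taken from RefSeq (GRCm38.p6), at the longest run of C and T between 20 bases before and 50 bases after the annotated start, with that run in capitals.
Rpl14, chr9:120571501-120571530, plus strand: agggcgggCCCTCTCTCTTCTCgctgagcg
Rpl37, chr15:5116633-5116662, plus strand: cgggggtgCTTTCTCTTCCggtctctttgg
Rplp0, chr5:115559470-115559499, plus strand: ccgcctggTTCTCCTataaaaggcacacgc
Rps19, chr7:24884612-24884641, plus strand: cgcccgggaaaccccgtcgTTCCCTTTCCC
Rps25, chr9:44407686-44407715, plus strand: accgggctTCCTTTTTTTCCgacatcttag
Rps6, chr4:86857347-86857376, minus strand: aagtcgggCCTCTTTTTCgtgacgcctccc
Rps28, chr17:33824561-33824590, minus strand: ccgaggatTCCTgggtaccgcgtgcggtct

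The longest run was 14 bases in Rpl14, 12 in Rps25, 11 in Rpl37 and in Rps19, 10 in Rps6, 7 in Rplp0 and 4 in Rps28. In Rps6 it began 1 base before the annotated start and in Rpl14 8 bases before it. In Rps19 it began at base 40 of the transcript and was cut off by the end of the window. In Rpl37 it began at base 29, and in Rplp0 at base 12, where its last T is also the first letter of TATAAA. In Rps25 and Rps28 it began at the first base of the window and goes on upstream in the lower-case letters, so that its full length is greater. Of the 45 members, 40 had a start in the table. The median longest run was 11 bases (7 to 14) in the 6 called lower and 10 bases (4 to 21) in the other 34. The longest runs, 21 bases in Rpl7a, 20 in Rpl27a and 18 in Rpl35, were in genes not called lower at P10. A run of 8 or more C or T in this window was found in 31 of them (77.5%), against 28.5% of the 27025 genes in the table. The letters CCGGAAG, searched on both strands from 250 bases before to 50 bases after the start, were in 20 of the 40 (50%) against 9.93% of all genes. The letters TATAAA, searched in the same way, were in 5 of the 40 (12.5%) against 15.7%. These are letter matches at annotated starts, some of which lie away from the run.

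At P14, the 13 genes called lower were Rpl14, Rpl27, Rpl37, Rpl6, Rpl8, Rplp0, Rps18, Rps19, Rps25, Rps26, Rps3, Rps6 and Rpsa, by 1.51-fold in Rpl6 to 2.93-fold in Rpl14. Rpl6 and Rps3 were not called without P14 replicate 2 (-0.5 and -0.55), nor Rpl27 without P14 replicate 1 (-0.57). Rpsa, a small-subunit protein also known as the laminin receptor precursor, read 14.07 on both P0 arrays, 14.03 and 14.04 at P3, 13.64 and 13.86 at P7, 13.49 and 13.58 at P10, 13.45 and 13.19 at P14, and 13.27 and 13.21 at P21. Its stage means were lower at each stage than at the one before, and the change was -0.75 at P14 and -0.83 (SE 0.12, 1.78-fold, adjusted p = 0.000307) at P21.

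At P21, 3 genes were called lower that are not in the P14 list, Rpl10a, Rpl4 and Rps9, with changes of -0.645, -0.62 and -0.705. Rpl4, a large-subunit protein that lines the tunnel through which the new chain leaves, read 14.07 and 14.06 at P0 and 13.50 and 13.39 at P21. Rpl6 read 13.82 on both P0 arrays and 13.06 and 13 at P21, a change of -0.79 (SE 0.10, 1.73-fold). Rps26 read 14.06 and 14.09 at P0 and 13.36 and 13.22 at P21, a change of -0.785 (SE 0.10, 1.72-fold). Rps3 and Rps18 both changed by -0.715, and neither was called without P21 replicate 2, nor were Rpl10a and Rpl4. Rpl27 was not called without P0 replicate 1. The other 2 genes called lower at P21 were Rpl8 and Rpl27, with changes of -0.745 and -0.62, beside Rpl14, Rpl37, Rplp0, Rps6, Rps19, Rps25 and Rpsa.

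Between neighbouring stages after P3, calls were made in the step from P3 to P7. There 5 of the 45 were called lower, against 3.98% of probe sets, and 1 higher, against 6%, with a median change of -0.235. The 5 were Rps6, Rpl37, Rpl39l, Rps25 and Rpl14, with changes from -1.17 to -0.75, and the gene called higher was Rpl12. When P7 replicate 1 was left out, 3 genes were called in this step, and Rpl37, Rpl39l and Rps25 were not. Rpl37 and Rpl39l were also lost without P3 replicate 2. Both P7 arrays lay below both P3 arrays in 40 of the 45, against 33% of all probe sets.

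From P7 to P10, from P10 to P14 and from P14 to P21, limma called none of the 45, against 0.127%, 0% and 1.73% of all probe sets called lower and 0.104%, 0% and 0.722% called higher. At an unadjusted p under 0.05, 4 members were lower from P7 to P10, none was lower or higher from P10 to P14, and 1 was lower and 3 were higher from P14 to P21. The methods' t-test at its unadjusted threshold also called 0 in each of these steps. The median change was -0.115 from P7 to P10, with 42 of 45 below zero, and -0.095 from P10 to P14, with 41 below zero. From P14 to P21 it was -0.025, with 23 below zero and 22 above, and its sign turned with single arrays left out (-0.11 to 0.09).

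Both subunits were lower in their medians, and no test of the difference between them was made. At P10 the median change was -0.308 over the 24 large-subunit genes and -0.30 over the 21 small-subunit genes, with 3 of each called lower (12.5% and 14.3%), near the 10.1% of all probe sets. At P14 it was -0.402 and -0.34, with 6 and 7 called lower (25% and 33.3%) against 11.3%. At P21 it was -0.408 and -0.455, with 8 of each called lower (33.3% and 38.1%) against 14.9%.

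The size of the change differed with the brightness of the probe set. In 33 of the 45 genes the mean over the 12 arrays was over 13, close to the highest values on the arrays. All 33 were lower at P10, with both P10 arrays below both P0 arrays in each, against 33.6% of all probe sets. The median change was -0.31, and 2 were called (6.06%), fewer than the 10.1% of all probe sets called lower. The 5 genes with a mean from 9 to 13 were Rpl14, Rpl37, Rps6, Rps25 and Rps27l. Their median change at P10 was -1.2, and 4 were called. The 7 genes with a mean under 9 (Rpl12, Rpl27a, Rpl39, Rpl39l, Rpl3l, Rps16 and Rps27) had a median of -0.15, and none was called by limma at P10. The 301 other probe sets of the array with a mean over 13 had a median change of 0.11 at P10, with 6 called lower and 36 higher, and 111 of them were below zero and 188 above. The part of brightness in the size of the changes was not tested.

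Further probe sets of the same genes gave larger changes in several members whose brightest probe set was near the top of the scale. For Rpl13a, a reference gene of many studies, the chosen probe set (mean 13.94) changed by -0.105 at P10 and -0.125 at P21, neither of them called. A dimmer one (mean 11.92) changed by -1.17 (adjusted p = 7.52e-05) and -1.30 and was called at both. For Rpl22, the chosen probe set changed by -0.39 at P21, one with a mean of 12.04 by -0.575, not called, and the dimmest (mean 11.20) by -2.00. The dimmest was also called lower from P14 to P21 (-0.785). For Rps20 the chosen probe set changed by -0.14 at P10, while the 2 called ones with means of 6.502 and 6.319 changed by -1.42 and -1.26. Called further probe sets of Rps10, Rps15, Rpl7, Rpl27 and Rpl37a were lower as well at P10 or P21, each by more than the chosen one.

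Of the 54 further probe sets, 11 were above zero at P10 and 11 at P21, 10 of them at either stage with a mean under 9. Those called higher all had a mean under 9. At P10 they were probe sets of Rps9 (0.635), Rpl41 (1.48 and 0.975) and Rps24 (1.07), and at P21 of Rps9 (0.595), Rps3 (0.615) and Rpl35 (0.63). Over all 73 probe sets of the members with a mean over 9, 70 were below zero at P10 and 72 at P21. Of the 17 genes with more than 1 such probe set, all of the gene's probe sets were below zero in 16 at either stage.

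**Figure D4:**
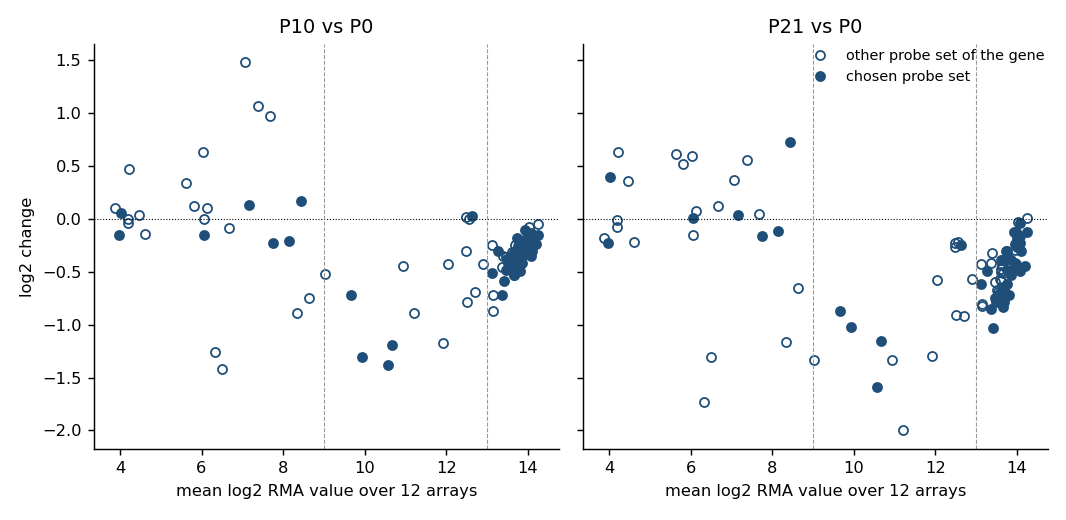
Log2 change from P0 at P10 (left) and P21 (right) against the mean log2 RMA value over 12 arrays, for all 99 probe sets of the 45 genes (filled, the chosen probe set; open, the others; dashed lines at 9 and 13). Above 9 nearly all points lie below zero, with the largest changes between 9 and 13, and below 9 they lie on both sides of zero.

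The reference genes among the members differed in how far they moved on their chosen probe sets. Rplp0 and Rps18 were called lower at P21, by 1.03 and 0.715 on the log2 scale in size. Rpl19 changed by -0.185 at P10 (95% interval -0.404 to 0.0343) and by -0.305 at P21 (adjusted p = 0.0306), under the fold limit, and over the 6 stages its F-test gave an adjusted p of 0.0503. Rpl13a did not pass the F-test (adjusted p = 0.307), with a range of stage means of 0.23. Rpl11, a large-subunit protein that also binds Mdm2 when ribosome assembly is disturbed, changed by -0.355 (adjusted p = 0.0182) at P10 and -0.385 at P21. Rps28 and Rps29 varied least, with ranges of 0.185 and 0.19 between stage means. Rps28 read 14.17 and 14.15 at P0, 14.02 and 14.03 at P10 and 14.03 and 13.97 at P21, so that even here the later arrays lay below both P0 arrays.

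The paralogs known from special tissues or conditions were mostly on dim probe sets, and limma called Rpl39l, Rpl3l and Rps27l neither lower nor higher than at P0 at any stage. Rpl39l, a copy of Rpl39 known from the male germ line, read 7.66 and 7.86 at P0, 8.47 and 8.71 at P3, 7.28 and 7.81 at P7 and 7.73 and 7.33 at P10. Its 2 P3 arrays were above the other 10. The difference of P3 from P0 was 0.83 (SE 0.23) with an adjusted p of 0.0666, and the step from P3 to P7 was called (-1.05, SE 0.23, adjusted p = 0.013). Rpl39 itself, on a probe set near 6, stayed between 5.87 and 6.22. Rpl3l, the paralog of striated muscle, stayed between 3.82 and 4.13, among the lowest values of the arrays. Rps27l, a copy of Rps27 that is a target of p53, read 12.62 and 12.69 at P0, 12.92 and 12.94 at P3, 12.66 and 12.70 at P10, and 12.67 and 12.14 at P21. Its changes of 0.025 at P10 and -0.25 at P21 were not called. Rps27 changed by -0.21 at P10 and -0.115 at P21. Rps4x, the X-linked copy of its gene, changed by -0.455 (adjusted p = 0.00279) at P21. The pseudogene Rps4l, which was not counted, changed by -0.445 at P10 and was called lower at P14 (-0.825) and P21 (-1.33).

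The members called higher in any comparison were Rpl12 and Rpl27a, both on probe sets under a mean of 9. Rpl12 read 7.32 and 7.18 at P0, 6.30 and 6.58 at P3 and 7.54 and 7.33 at P7. It was the member called lower at P3 (-0.81, SE 0.17, adjusted p = 0.0251) and called higher from P3 to P7 (0.995), so that the P3 arrays stood alone. Its call at P3 was lost without P0 replicate 1, P0 replicate 2 or P3 replicate 1. Rpl27a was the 1 member called higher at P21, against 12.4% of all probe sets, with 8.18 and 8.02 at P0 and 9.24 and 8.41 at P21 (0.725, SE 0.25, adjusted p = 0.0379). That call was lost without P21 replicate 1, without either P0 array and in 4 further fits that each left out 1 array. Rps16 had its highest stage mean at P21 as well, on a probe set with a mean of 4.03, in the lowest 25% of all probe sets. It read 3.84 and 4.01 at P0 and 4.03 and 4.61 at P21. That change of 0.395 (SE 0.18) was not called, and so near the floor of the arrays it says little about the transcript.

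Further ribosomal protein probe sets moved in the same direction. Of the 110 that carry several symbols, 16 were called lower (14.5%) and 1 higher at P10, against 10.1% and 9.24% of all probe sets. The median change was -0.275. At P21, 29 were called lower (26.4%) and 1 higher, against 14.9% and 12.4%, with a median of -0.345. Probe sets that also name 1 of the 45 were not removed from the 110, so they may measure the same genes. Fau, whose product is cleaved to a small-subunit protein, read 13.80 and 13.84 at P0, 13.46 and 13.54 at P10, and 13.51 and 13.34 at P21. Its change was -0.32 (adjusted p = 0.0352) at P10. The paralogs Rpl22l1 and Rpl7l1 changed by -0.255 and -0.50 at P10 and by -0.205 and -0.715 at P21, of which the last was called.

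The 76 mitochondrial ribosomal protein genes stood higher at P3 than at P0, with a median change of 0.195 and 68 of 76 above zero, none of them called by limma with the fold limit and 4 passing the adjusted p alone. From P3 to P7 their median change was -0.238, beside the -0.235 of the cytosolic genes. In that step 64 of 76 were below zero and 1 was called lower (1.32%), against 3.98% of all probe sets. At P10 their median against P0 was -0.0125, with 2 called lower (2.63%) and none higher, against 10.1% and 9.24% of all probe sets. At P21 it was -0.115, with 5 called lower (6.58%) and 3 higher, against 14.9% and 12.4%. No test of the difference between both groups of genes was made.

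Other genes of ribosome production and translation were read from lists, which share some genes. Of 81 genes of pre-rRNA transcription and processing, 28 were called lower (34.6%) and 1 higher at P10, against 10.1% and 9.24% of all probe sets. Their median was -0.45. At P21, 43 were called lower (53.1%) and 2 higher, against 14.9% and 12.4%, with a median of -0.595. At P10 the largest changes among them were those of Fbl, the methyltransferase of the box C/D particles (-1.27), and of Utp20 (-1.18), Tcof1 (-1.16) and Rrp12 (-1.08), which act in the nucleolus. At P21 they were those of Nop58 (-1.88), Rrp15 (-1.41), Nop16 and Fbl (both -1.39). Nop58, a core protein of the same particles, read 11.25 and 11.22 at P0, 10.36 on both P10 arrays and 9.35 and 9.36 at P21.

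Of 22 other transcripts of the TOP class, 7 were called lower (31.8%) and none higher at P10 (median -0.465), against 10.1% and 9.24% of all probe sets. At P21, 13 were called lower (59.1%) and none higher (median -0.628), against 14.9% and 12.4%. Part of these 22 is also counted in the other lists given here, so the lists are not independent of each other. Nap1l1, a histone chaperone, changed by -1.33 at P10 and -1.66 at P21. Gas5, a host transcript of small nucleolar RNAs, changed by -0.85 and -0.925. Of 31 genes in the list of translation initiation factors, 5 were called lower at P10 (16.1%, median -0.325), near the 13.5% of all genes on 1 probe set each. At P21, 18 were called lower (58.1%, median -0.755), against 16.9% of all genes, and none was called higher at either stage. The list includes Eif4ebp1 and Eif4ebp2, which bind the initiation factor Eif4e and are not factors themselves. Their stage means were 9.325 and 9.055 at P0 and 8.145 and 8.1 at P21. Eif3h changed by -0.805 at P10, Eif3l by -1.35 at P21 and Eif4a1, the initiation helicase, by -1.16 at P21.

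Elongation factors were split. Eef2, the translocase, changed by -0.615 at P10 and -0.63 at P21 and was called at both. Eef1a1 read 14.34 and 14.33 at P0, 14.24 and 14.25 at P10 and 14.09 and 13.99 at P21, a change of -0.295 at P21 that was not called. Eef1a2, the form known from mature neurons and muscle, read 11.09 and 11.04 at P0, 11.54 and 11.50 at P10 and 11.46 and 12.32 at P21, and was called higher at P14 (0.985) and P21 (0.825). Eif5a2 was called higher at P10 (0.935) and P21 (1.11). Of the 8 in this list, 1 was called lower (12.5%) and 1 higher at P10, near the 10.1% and 9.24% of all probe sets. At P21, 2 were called lower (25%) and 2 higher, against 14.9% and 12.4%.

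In the list of 22 genes of mTORC1 and of the control of TOP mRNAs and ribosome genes, calls went both ways, with 3 lower and 2 higher at P10 and the same numbers at P21. These are 13.6% and 9.09% of the list, near the shares of all probe sets at P10 (10.1% and 9.24%) and not above those at P21 (14.9% and 12.4%). Myc, a transcription factor known to raise ribosome production, read 9.40 and 9.60 at P0, 8.92 and 8.78 at P3, 7.97 and 7.96 at P10 and 7.69 and 7.89 at P21. The changes were -1.54 (SE 0.17, adjusted p = 0.000142) at P10 and -1.71 at P21. Mycn changed by -1.16 and -1.82. Larp1b changed by 1.16 at P10, and Deptor, an inhibitor that binds mTOR, by 1.06 at P10 and 1.75 at P21. Mtor was called lower at P3 (-0.625) and not at P10 (-0.115) or P21 (0.26).

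**Figure D5:**
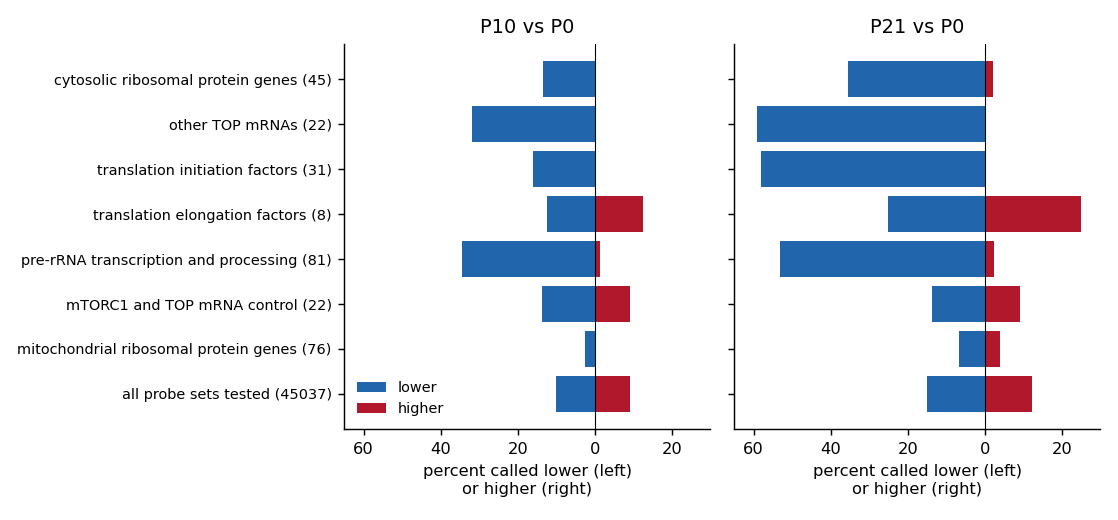
Percent of genes called lower (blue, to the left) and higher (red, to the right) at P10 and at P21 against P0, for the 45 ribosomal protein genes, 6 other lists and all 45037 probe sets tested (number of genes or probe sets in brackets). At P21 the bars to the left are longest for other TOP mRNAs, the initiation factor list and pre-rRNA genes, and the mitochondrial ribosomal protein genes have shorter bars than all probe sets. Some genes are in several of the lists.

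Markers of several cell types moved over the same stages. The mean of 12 genes of dividing cells was 10.38 and 10.18 at P0, 8.923 and 9.925 at P3, 8.869 and 9.091 at P7, 8.714 and 8.721 at P10, 9.855 and 8.276 at P14, and 7.63 and 7.755 at P21. Of the 12, 8 were called lower at P10, against 10.1% of all probe sets, and all 12 at P21, against 14.9%. The P14 arrays differed by more than 1 log2 unit in this list. The mean of 6 bone genes was 9.233 and 8.848 at P0 and 12.88 and 12.82 at P10, with 4 called higher. That of 7 neutrophil and marrow genes was 7.317 and 7.036 at P0 and 10.32 and 9.46 at P10, with 5 called higher. Of the 5 Schwann cell and myelin genes 3 were called higher at P10, of the 10 neuron genes 4 higher and 2 lower, and of the 7 macrophage genes all 7 higher. Over all probe sets, 9.24% were called higher and 10.1% lower at P10. The calls at P10 were 2 of 4 higher for erythroid genes, 2 of 6 higher for B cell genes, 2 of 7 lower and 1 higher for hair cell genes, and 1 of 6 lower for skeletal muscle genes. The part of these shifts in cell makeup in the ribosomal protein results was not tested.

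The genes outside the 45 whose course over the 12 arrays was most like the mean of the 45 were Hpn, Fau and Smarca1, with Pearson correlations of 0.9919, 0.9918 and 0.9915. The most opposite were Napb (-0.9952), Zfp385b (-0.9949) and Mapk10 (-0.9926). The 12 points are 6 stages of 2 arrays, so that any steady course over development gives a high value. Smarca1 read 11.27 and 11.40 at P0, 10.25 and 10.35 at P10 and 10.31 and 9.82 at P21. Mapk10 read 9.40 and 9.44, then 11.56 and 11.29, then 11.82 and 12.37.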

How the data were processed

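Total RNA of 12 samples was labelled with a kit that primes from the 3′ end and hybridised to Affymetrix mouse arrays. Per the labels, the authors processed the arrays with RMA and MAS5 in Affymetrix Expression Console (versions not given in the sources used here), and the deposited values, taken as the RMA output, are in log2 units. RMA normalises the arrays to 1 common distribution, so a shift of all transcripts together would not be seen. Gene names came from the platform annotation and starts from RefSeq (GRCm38.p6).

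The 64 control probe sets were left out and 45037 were fitted with limma 3.58.1 in R 4.3.3 (lmFit, eBayes, 6 stages, 6 residual degrees of freedom), with Benjamini-Hochberg adjustment over all of them. The fit was tested on simulated data. Errors are the SE of the fit. The p-values rest on the spread between the 2 mice of a stage, pooled over all 6 stages and moderated over the probe sets by eBayes. They do not rest on the spread of the compared stages alone. The members and gene lists were chosen with earlier results of these data known. Genes were named by a rule: up to 6 called members in each direction per comparison, a fixed set of reference, disease and paralog genes, members whose further probe sets disagreed, the most and least variable, up to 4 called genes of each other list at P10 and P21, Eef1a1, Eef1a2, Myc and Mtor, and the 3 genes most like the members' mean. Other genes named were chosen after their values were seen. Alternatives covered the replicate block, trend, filter, scaling, probe set choice, arrays fitted, the methods' t-test, the fold limit and each array left out.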

Additional observations from a re-analysis of the deposited data

How the results depend on the processing

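The counts of genes called at P10, P14 and P21 against P0 kept their direction and stayed within 1.5 times of the reported ones when an intensity trend, a filter on the dimmest 25%, 1 common median per array, an average over every probe set of the gene or the replicate block was used. The replicate block left 1, 3, 6, 13 and 17 genes called at P3, P7, P10, P14 and P21 and changed no other call count. The differences between replicates were correlated between stages at over 0.1 in 6 of 15 stage pairs (range -0.12 to 0.32). These values do not settle whether samples with the same replicate number were paired. Without the fold limit, 6, 22, 31 and 30 genes were called at P7, P10, P14 and P21, 10 from P3 to P7 and 32 over the stages. The methods' t-test gave 2 at P3 unadjusted and, after Benjamini-Hochberg, 0 at P3, P7, P10, P14 and P21 and 0 from P3 to P7. The 4 arrays of P3 and P0 alone gave 0. With the 24 genes that have any plain (_at) probe set read on the brightest of these, 3, 8 and 10 were called at P3, P14 and P21. From P3 to P7, 10 were called. With probe sets over a mean of 13 left out (23 genes, an alternative chosen after seeing the data), 2, 5, 11 and 11 were called at P3, P7, P10 and P21 and 13 from P3 to P7. Leaving out each array in turn gave 0 to 2 at P3, 2 to 4 at P7, 5 to 6 at P10, 11 to 14 at P14, 13 to 21 at P21, 3 to 6 from P3 to P7 and 16 to 25 over the stages. With Rps4l counted, another alternative chosen after seeing the data, no count moved by over 1.5 times.

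Single genes changed sign as follows, and the cause was not tested. On plain probe sets the log2 change at P10 was 0.475 in Rpl35, 1.48 in Rpl41, 0.125 in Rps10, 1.07 in Rps24 and 0.635 in Rps9. At P21 it was 0.63 in Rpl35, 0.365 in Rpl41, 0.52 in Rps10, 0.12 in Rps18, 0.555 in Rps24 and 0.595 in Rps9. Without probe sets over 13 it was 0.975 in Rpl41 and 1.07 in Rps24 at P10, and 0.045 in Rpl41, 0.12 in Rps18 and 0.555 in Rps24 at P21. With all probe sets averaged, Rpl41 was 0.455 at P10. With 1 median per array, Rps27l was -0.035 at P10 and Rpl39 -0.025 at P21. With each array left out in turn, changes near zero ranged from -0.085 to 0.205 in Rps16 and from -0.01 to 0.06 in Rps27l at P10. At P21 they ranged from -0.20 to 0.28 in Rpl12, -0.06 to 0.07 in Rpl39, -0.44 to 0.11 in Rpl39l, -0.145 to 0.065 in Rps14, -0.355 to 0.125 in Rps27 and -0.515 to 0.015 in Rps27l.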
